A study of Mus musculus with 15 samples.

Results

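The amino acid carriers of the solute carrier families Slc1, Slc3, Slc6, Slc7, Slc36, Slc38 and Slc43 were followed through MYC-driven liver tumor growth and early regression in the mouse. A gene belonged to the set when its symbol in the deposited table was one of these family names followed by "a" and a number. The rule gave 55 of the 21538 gene symbols on the array: 7 in Slc1, 2 in Slc3, 19 in Slc6, 15 in Slc7, 4 in Slc36, 5 in Slc38 and 3 in Slc43. Of these, 51 passed the filter on dim signal, which asked for 3 or more of the 15 arrays to be well above background, and were tested. The 4 that did not were all in Slc6: Slc6a5 and Slc6a15 were not well above background on any array, and Slc6a2 and Slc6a19 were on 1 array each. Slc38a7 to Slc38a11 carried other names in the table and so are not members.

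All mice were FVB/N and carried LAP-tTA, a tetracycline transactivator driven by a liver promoter active in hepatocytes, and were fed doxycycline chow (200 mg/kg) to beyond 8 weeks of age. Of the 4 groups, 3 also carried TRE-MYC, which is switched on when doxycycline is withdrawn. Regressing tumor tissue (4 arrays) was taken after 8 to 9 weeks without doxycycline and then 72 hours back on it, and tumor tissue (4 arrays) after 8 to 9 weeks without it. Pre-tumor livers (4 arrays) were taken 4 to 5 weeks after withdrawal, when they held no tumor. Control livers (3 arrays) came from mice with LAP-tTA alone, whose time off doxycycline the labels do not give. Nothing in the labels ties arrays to animals, so p-values measure the spread between these samples, which may be technical.

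Each array measured 1 sample in 1 colour. Between 46.4% and 90.8% of an array's spots were well above background, and arrays of a group correlated at 0.836 to 0.970 across genes, which are not independent replicates. A level below is the log2 signal with the array's 75th percentile set to 0, so it can be compared between groups for 1 gene but not between genes. A difference is between group means on that log2 scale, with its standard error (SE) from limma. A member changed when its adjusted p, corrected over all 19328 genes tested, was under 0.05. The labels' transgene could be checked only through the array's Myc probes, which went different ways. A Myc probe above background on all 15 arrays stood at 3.65 to 4.81 in tumors, against -1.63 to -0.23 in control liver. It stood at 0.09 to 2.50 in pre-tumor livers and at -0.82 to -0.10 in regressing tumors. The brightest Myc probe stood at 0.44 to 1.22 in tumors, against 1.62 to 2.18 in control liver. The remaining Myc probe, above background on 11 arrays, was also lower in tumors, at -3.70 to -2.33 against -2.30 to -1.56 in control liver. All 9 hepatocyte markers tested were above background on at least 1 array of every group.

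Amino acids cross membranes mostly through carriers, and cells that build protein and nucleotides fast need more of them. Several carriers are exchangers that take 1 amino acid in for another going out, and the Slc7 light chains of this kind work only when bound to a heavy chain of the Slc3 family. The liver is unusual in both taking up and releasing glutamine and glutamate, with different carriers on hepatocytes at the 2 ends of the lobule.

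In tumors 8 members rose and 8 fell against control liver. The rises were in carriers of glutamine (Slc1a5), of cationic amino acids (Slc7a1, Slc7a6), of large neutral amino acids (Slc7a5, Slc7a8 and their heavy chain Slc3a2), of creatine (Slc6a8) and of small amino acids with protons (Slc36a2). The falls took in carriers that normal liver is known for: Slc1a2 for glutamate, Slc7a2 for arginine, and Slc38a3 and Slc38a4 for glutamine and other neutral amino acids. The other falls were in Slc6a12, Slc6a18, Slc36a3 and Slc43a3. The 8 rises are 15.7% of the members tested, where 9.38% of all genes rose, and the 8 falls are also 15.7%, where 7.01% of all genes fell. Over both directions 16.4% of all genes changed. Over all 51, 22 members did not overlap between the groups, where 25.6% of all genes did not. They held 15 of the 16 called members, without Slc6a18. Slides could be compared on 3 of 4, those that held both tumor and control arrays: 15 of the 16 had the same sign on each, again with the exception of Slc6a18. Members without overlap must have the same sign on each slide, so this is no separate check of the calls. The median difference was -0.49 over the members and -0.18 over all genes. With arrays centred on their medians 9 members rose and 5 fell, and the median of all genes was 0.14.

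**Figure D1:**
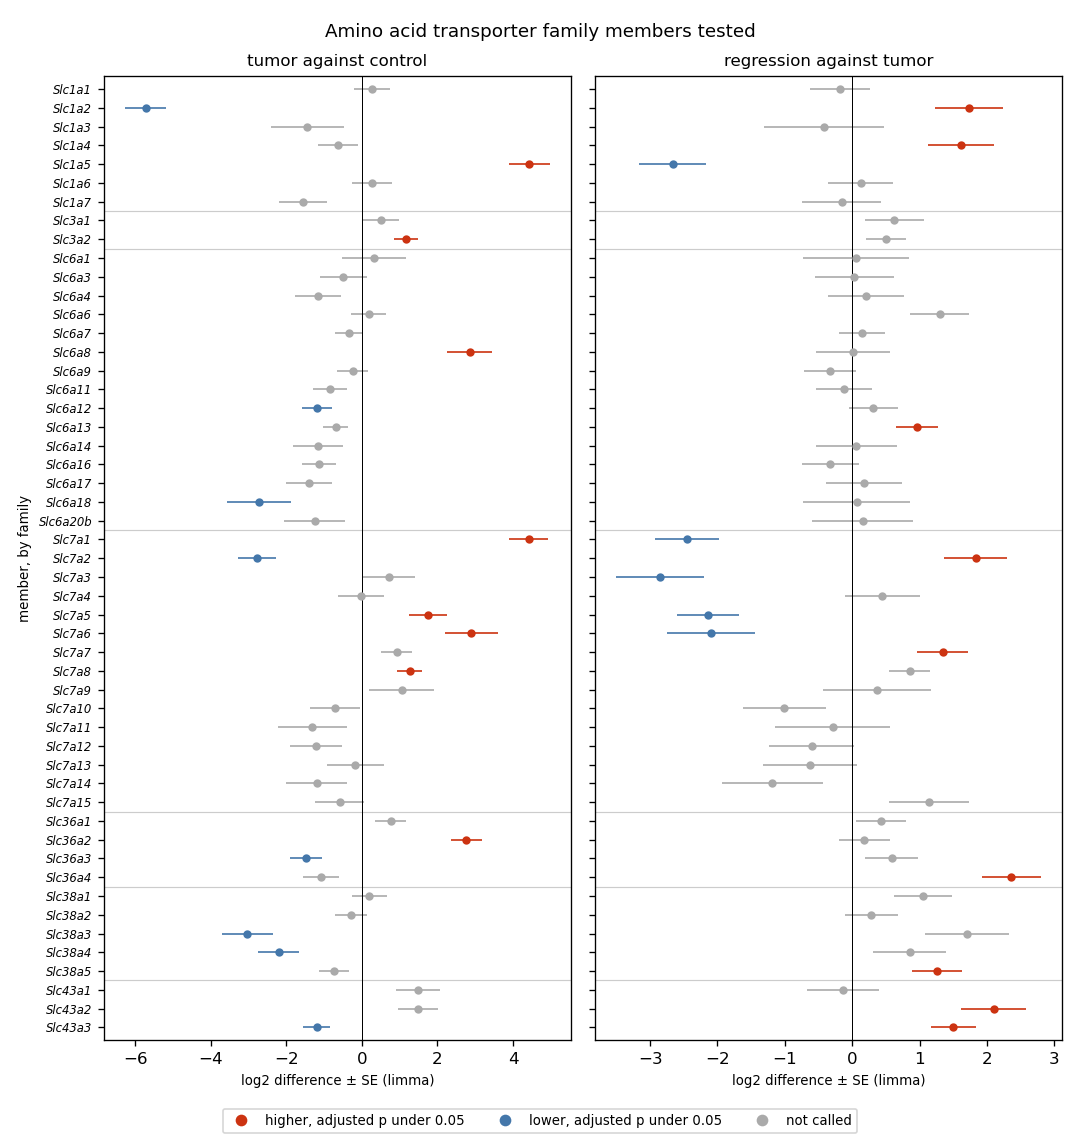
Difference of each tested member on the log2 scale (x axis) with its SE, for tumor against control (left) and regression against tumor (right), with members down the page by family. Red points rose, blue points fell and grey points were not called. In tumors Slc1a5 and Slc7a1 lie farthest to the right and Slc1a2 farthest to the left. The tumor arrays enter both panels.

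Slc1a5, also called ASCT2, is a sodium-dependent exchanger that brings glutamine and other neutral amino acids into cells. It stood at 4.00, 3.78, 2.17 and 4.11 in tumors, against -1.37, -0.04, -1.36 and -2.09 in pre-tumor livers and -0.55, -0.79 and -1.40 in control liver. Each tumor array was above every array of the other 2 groups, tumor 3 by the least. The difference from control was 4.43 ± 0.54, or 21.6-fold (adjusted p = 2.95e-05). After 72 hours of doxycycline it stood at 1.40, 1.38, 0.37 and 0.26, below each tumor array, a difference from tumor of -2.67 ± 0.50 (adjusted p = 0.00175). Its regression arrays were all above its control arrays, but that difference did not pass (1.77 ± 0.54, adjusted p = 0.0576). It passed under 9 of 28 other settings, among them median centring (adjusted p = 0.0343), replicate number as a block (adjusted p = 0.0169) and leaving out pre-tumor 2, pre-tumor 4 or tumor 3 (adjusted p between 0.0279 and 0.047).

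Slc1a2, the glutamate carrier GLT-1, is in normal liver found in the hepatocytes around the central vein, beside glutamine synthetase. It stood at -1.66, -0.52, -2.83 and -1.72 in tumors, against 3.88, 4.27, 4.98 and 3.60 in pre-tumor livers and 5.01, 3.56 and 3.53 in control liver. The groups lay far apart, and the fall from control was 52.7-fold (-5.72 ± 0.54, adjusted p = 2.63e-06). After renewed doxycycline it stood at -0.09, 0.03, 0.85 and -0.59, a partial rise over tumor (1.73 ± 0.50, adjusted p = 0.0263) with 1 array of each group overlapping. That rise was lost when 1 of tumor 1, 3 or 4 or regression 2 or 3 was left out (adjusted p between 0.0547 and 0.0916). The mean of all passing probes, slide as a block and normexp background with quantile normalization also ended it (adjusted p = 0.338, 0.0618 and 0.294). Its other probes differed by 1.09, 0.45 and -0.76 in regression against tumor and were not called (adjusted p = 0.0905, 0.724 and 0.41). Regression stayed far below control (-3.99 ± 0.54, adjusted p = 0.000247). Slc1a2 has 4 probes: 3 fell in tumors, with differences of -5.72, -4.72 and -3.74, and the fourth, above background on all 15 arrays, differed by 0.18 (adjusted p = 0.872). Glul, glutamine synthetase itself, fell by 1.67 in tumors against control (adjusted p = 0.0341).

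Slc1a4, or ASCT1, carries alanine, serine, cysteine and threonine. It stood at -2.28, -0.90, -3.52 and -1.23 in tumors, against -1.48, -0.67, -0.31 and -0.43 in pre-tumor livers and -1.66, -0.81 and -1.57 in control liver. Tumor arrays lay among and below the control arrays, and the difference was not called (-0.64 ± 0.53, adjusted p = 0.472). Its regression arrays stood at -0.09, -0.55, -0.09 and -0.74, above every tumor array (1.62 ± 0.49, adjusted p = 0.0314). This call was lost without any 1 of tumor 1 and 3 and regression 1, 2 and 3 (adjusted p between 0.0578 and 0.0873). Normexp with quantile normalization, the authors' table, only the 2 groups compared and the mean of all passing probes also ended it (adjusted p up to 0.482). A second probe, above background on 3 arrays, differed by -0.20. Slc1a1, the neuronal and epithelial glutamate and cysteine carrier, stood at -0.12, -0.33, -0.94 and -0.68 in tumors and at -1.74, 0.02 and -0.65 in control liver (0.27 ± 0.48, adjusted p = 0.767). It stood at -1.71, -0.77, -0.09 and -0.25 in regressing tumors and at -0.28, 0.07, -1.26 and -0.57 in pre-tumor livers, so all 4 groups overlapped. A second Slc1a1 probe, above background on only 6 arrays, was higher in tumors (2.77, adjusted p = 0.0125). The glutamate carriers Slc1a3, Slc1a6 and Slc1a7, best known from brain and retina, were not called in any comparison.

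The Slc38 carriers take up glutamine and small neutral amino acids with sodium, and the system N members Slc38a3 and Slc38a5 can also let glutamine out. Slc38a3 stood at 1.78, 0.96, 3.87 and 1.22 in tumors, against 4.35, 4.14, 6.35 and 4.43 in pre-tumor livers and 5.16, 4.21 and 5.59 in control liver. No tumor array reached the control arrays, and the fall was 8.18-fold (-3.03 ± 0.67, adjusted p = 0.00483). Of the 28 other settings, only leaving out the 4 arrays of highest E1A spike-in signal ended that call (adjusted p = 0.0571). With regression under way it stood at 3.23, 3.79, 4.43 and 3.20, overlapping tumor through tumor 3 (1.71 ± 0.62, adjusted p = 0.0758). Without tumor 3 that difference was 2.34 and passed (adjusted p = 0.00785), and it also passed without pre-tumor 3 (adjusted p = 0.0433) and under 6 further settings of the 28.

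Slc38a4, a system A carrier most abundant in liver and imprinted in the mouse, stood at 4.89, 4.77, 5.65 and 4.04 in tumors, against 7.12, 6.38, 8.51 and 6.66 in pre-tumor livers and 7.69, 6.33 and 7.11 in control liver. Tumor lay below both (-2.20 ± 0.54 against control, adjusted p = 0.0103). The call was lost without control 1 (adjusted p = 0.0531), with slide as a block and without the 4 arrays of highest E1A spike-in signal (adjusted p up to 0.118). A second probe fell by 2.37 (adjusted p = 0.00125). Its values in regressing tumors were 5.59, 6.32 and 5.17 on the 3 arrays measured, since the spot of regression 1 was an outlier (0.85 ± 0.54, adjusted p = 0.378).

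The widely expressed system A carriers Slc38a1 and Slc38a2 were not called in any comparison, although 1 of the other 5 Slc38a1 probes, above background on 11 arrays, was called in regression against control (2.65, adjusted p = 0.0104). Slc38a2 stood at 0.61, 0.94, 0.95 and 0.68 in tumors, at 1.96, 0.65, 2.20 and 2.35 in pre-tumor livers and at 1.09, 0.37 and 1.76 in control liver. In regressing tumors it stood at 0.86, 1.04, 1.52 and 0.89, and all groups overlapped. Slc38a1 stood at -0.10, -0.64, -0.12 and -0.49 in regressing tumors, each above the tumor values of -1.13, -0.78, -2.06 and -1.61, yet the difference did not pass (1.06 ± 0.43, adjusted p = 0.118). It did without control 1, which carries the lowest control value (adjusted p = 0.0371). The pre-tumor values of Slc38a1 were -0.95, -1.40, -1.81 and -1.28 and the control values -2.90, -1.04 and -0.84. Slc38a5 was above background on every regression array, at -2.94, -2.53, -2.23 and -2.93, and on no tumor array, at -4.10, -4.47, -3.19 and -3.91. It was thus at least 1.21-fold higher in regressing tumors (adjusted p = 0.028), a call that 10 of 28 other settings ended. They included leaving out any 1 of tumor 1, 2 and 4 and regression 2 and 3 (adjusted p between 0.0569 and 0.0984). The others were quantile normalization with and without normexp, the authors' table, slide as a block and trended variance (adjusted p up to 0.205). Signal cleared background on 2 of 4 pre-tumor arrays but on no control array, with values of -3.37, -4.22, -4.21 and -3.11 in pre-tumor livers and -2.92, -3.75 and -2.90 in control liver.

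**Figure D2:**
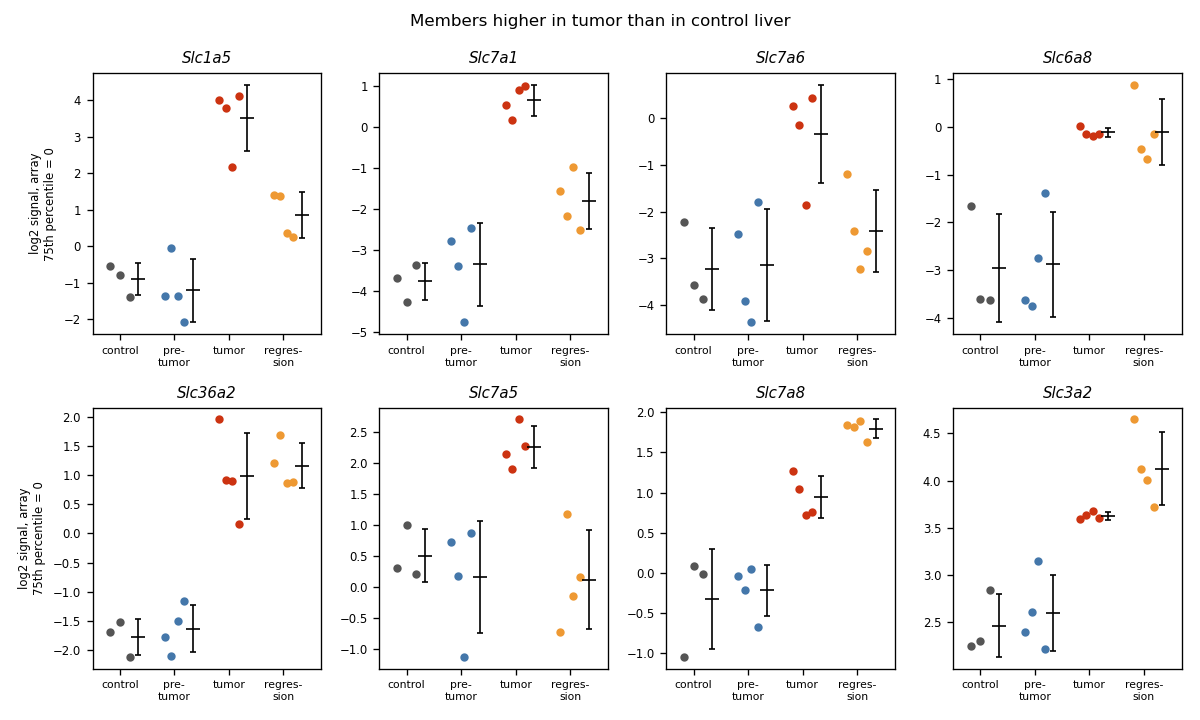
Level of the 8 members that rose in tumor against control, as log2 signal with the array's 75th percentile at 0 (y axes differ), 1 point an array, with groups in the order of the disease course; the black line and bars are the mean and SD of each group. In regressing tumors Slc1a5, Slc7a1 and Slc7a5 lie below all tumor arrays, while Slc6a8 and Slc36a2 overlap them and Slc7a8 and Slc3a2 lie above.

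The cationic carriers of Slc7 moved in opposite directions. Slc7a1, or CAT1, is the broadly expressed carrier of arginine and lysine that normal hepatocytes hardly make. It was above background on all 4 tumor arrays, at 0.54, 0.17, 0.88 and 0.99, and on no control array, at -3.69, -4.26 and -3.36. Tumors were therefore at least 11.3-fold above control liver (adjusted p = 1.71e-05). Pre-tumor livers, at -2.78, -3.39, -4.76 and -2.47, overlapped the control arrays. After renewed doxycycline it stood at -1.57, -2.16, -0.99 and -2.52, below each tumor array (-2.46 ± 0.47, adjusted p = 0.00199) and at least 2.06-fold above control (adjusted p = 0.0257). The last call was lost without any 1 of control 1 and 2 and regression 1 and 3 (adjusted p between 0.0678 and 0.095). Normexp with quantile normalization and slide as a block also ended it (adjusted p up to 0.0971).

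Slc7a2, or CAT2, is the arginine carrier of adult liver. It stood at 0.92, 0.65, 1.24 and 0.07 in tumors, against 4.09, 2.80, 4.89 and 3.90 in pre-tumor livers and 4.54, 2.67 and 3.26 in control liver. Tumors lay below both, 6.81-fold below control (-2.77 ± 0.50, adjusted p = 0.00109). Its regression arrays stood at 2.57, 2.61, 2.10 and 2.93, above every tumor array (1.83 ± 0.47, adjusted p = 0.0126). Its difference from control was then -0.94 ± 0.50 (adjusted p = 0.265). Slc7a3, or CAT3, best known from brain, stood at -1.34, 0.43, -1.41 and 0.19 in tumors, -1.40, -2.22, -2.43 and -0.38 in pre-tumor livers and -0.20, -1.86 and -1.68 in control liver, with all 3 overlapping. With regression under way it stood at -4.46, -2.19, -4.39 and -2.50, above background on 2 of 4 arrays and below every tumor array (-2.85 ± 0.65, adjusted p = 0.00632).

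Slc3a2, or CD98hc, is the heavy chain that carries Slc7a5, Slc7a6, Slc7a7, Slc7a8, Slc7a10 and Slc7a11 to the cell surface. It stood at 3.59, 3.64, 3.68 and 3.60 in tumors, against 2.40, 2.61, 3.15 and 2.22 in pre-tumor livers and 2.24, 2.30 and 2.84 in control liver. The tumor arrays were close together and above all others of these groups (1.16 ± 0.32, adjusted p = 0.021). The call was lost without any 1 of control 1 and 2 and tumor 2 (adjusted p between 0.0504 and 0.0784). Slide as a block, the mean of all passing probes and leaving out the 4 arrays of highest E1A spike-in signal also ended it (adjusted p up to 0.198). In regressing tumors it stood at 4.65, 4.12, 4.01 and 3.72, which did not differ from tumor by the test (0.50 ± 0.30, adjusted p = 0.343) and was above control (1.66 ± 0.32, adjusted p = 0.00368). A second Slc3a2 probe, above background on all 15 arrays, differed by -0.06 in tumors against control (adjusted p = 0.951) and by -0.18 in regression against control (adjusted p = 0.84). With the mean of all passing probes the call in regression against control was lost (adjusted p = 0.108).

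Slc7a5, Slc7a8, Slc7a7 and Slc7a6 are light chains that pair with Slc3a2. Slc7a5, or LAT1, exchanges large neutral amino acids such as leucine for glutamine. It stood at 2.14, 1.90, 2.69 and 2.27 in tumors, against 0.72, 0.18, -1.12 and 0.86 in pre-tumor livers and 0.31, 0.99 and 0.22 in control liver. Tumors were above both (1.75 ± 0.50 against control, adjusted p = 0.0246), a call lost without any 1 of control 1 and 3 and tumor 3 (adjusted p between 0.0589 and 0.0939). Slide as a block and leaving out the 4 arrays of highest E1A spike-in signal also ended the call (adjusted p = 0.0777 and 0.0847). After renewed doxycycline it stood at -0.73, 1.17, -0.15 and 0.16, below each tumor array (-2.14 ± 0.46, adjusted p = 0.00457), and its difference from control was -0.39 ± 0.50 (adjusted p = 0.677).

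Slc7a8, or LAT2, carries large and small neutral amino acids. It stood at 1.27, 1.04, 0.72 and 0.76 in tumors, against -0.04, -0.22, 0.05 and -0.67 in pre-tumor livers and -1.05, 0.08 and -0.01 in control liver, again with no overlap (1.27 ± 0.33, adjusted p = 0.0147). Without control 1 or tumor 1 that call was lost (adjusted p = 0.0895 and 0.0536). Slide as a block, only the 2 groups compared and leaving out the 4 arrays of highest E1A spike-in signal also ended it (adjusted p = 0.0516, 0.0671 and 0.08). Its regression arrays stood at 1.84, 1.82, 1.89 and 1.63, above each tumor array, though this difference did not pass (0.85 ± 0.31, adjusted p = 0.0748). It passed under 4 of 28 other settings: normexp with quantile normalization (adjusted p = 0.00896), the authors' table (0.017), the share of spots above background as a covariate (0.0338) and without control 1 (0.0421). Regression was 4.35-fold above control (2.12 ± 0.33, adjusted p = 0.000674).

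Slc7a7 and Slc7a6, or y+LAT1 and y+LAT2, exchange cationic amino acids for neutral ones plus sodium. Slc7a7 stood at 1.75, 1.89, 1.13 and 1.24 in tumors, 0.62, 0.07, 1.70 and 0.20 in pre-tumor livers and 0.18, 0.36 and 1.20 in control liver, overlapping throughout (0.92 ± 0.41 for tumor against control, adjusted p = 0.151). With regression under way it stood at 3.11, 2.65, 3.03 and 2.58, above every array of the other groups. It had risen against tumor (1.34 ± 0.38, adjusted p = 0.0227) and against control (2.27 ± 0.41, adjusted p = 0.00212). The call against tumor was lost without any 1 of tumor 3 and 4 and regression 1 and 3 (adjusted p between 0.0581 and 0.0624). Median centring and leaving out the 4 arrays of highest E1A spike-in signal also ended it (adjusted p = 0.089 and 0.0697).

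Slc7a6 was above background on 3 of 4 tumor arrays and 1 of 3 control arrays. It stood at 0.26, -0.15, -1.86 and 0.43 in tumors, against -2.48, -3.91, -4.37 and -1.79 in pre-tumor livers and -2.23, -3.58 and -3.87 in control liver. Tumor 3 was the lowest tumor array and lay among the pre-tumor values (2.90 ± 0.70 against control, adjusted p = 0.00894; 2.58 and adjusted p = 0.0516 without control 3). A second Slc7a6 probe, above background on 6 arrays, differed by 1.41 (adjusted p = 0.264). In regressing tumors it stood at -1.20, -2.41, -3.23 and -2.84, lower than tumor with 1 array overlapping (-2.09 ± 0.65, adjusted p = 0.0369). Without any 1 of tumor 1, 2 and 4 and regression 2, 3 and 4 the adjusted p lay between 0.0754 and 0.113. With slide as a block it was 0.0515.

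Slc7a11, or xCT, which exchanges cystine for glutamate and feeds glutathione synthesis, was mostly near background: 1 of 4 regression, 1 of 4 tumor, 3 of 4 pre-tumor and 2 of 3 control arrays were above it. It stood at -4.79, -4.94, -2.98 and -1.99 in tumors, against -1.90, -3.14, -2.77 and -0.14 in pre-tumor livers and -0.75, -2.57 and -3.78 in control liver (-1.31 ± 0.92 against control, adjusted p = 0.385). Regression values were -5.69, -4.14, -2.76 and -3.28. A change of Slc7a11 was not detectable at this signal. Slc3a1, or rBAT, the heavy chain of the cystine and dibasic carrier Slc7a9, stood at 0.28, 0.19, 1.58 and -0.32 in tumors, -1.29, -0.14, 0.24 and -0.70 in pre-tumor livers and 0.13, -0.88 and 0.51 in control liver. At 0.97, 1.16, 1.04 and 1.05 in regressing tumors it was above every control array, without passing (1.13 ± 0.47, adjusted p = 0.156). In Slc7 the 8 members never called were Slc7a4, Slc7a9, Slc7a10, Slc7a11, Slc7a12, Slc7a13, Slc7a14 and Slc7a15, none of them above background on all 15 arrays.

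Slc43a1 and Slc43a2, or LAT3 and LAT4, let branched-chain amino acids and phenylalanine through without sodium or exchange. Slc43a2 stood at -1.97, -2.18, -1.48 and -2.13 in tumors, against -3.17, -3.58, -4.50 and -1.98 in pre-tumor livers and -2.94, -2.98 and -4.36 in control liver. Tumors were above all control arrays without passing (1.49 ± 0.52, adjusted p = 0.0648), and passed under 7 of 28 other settings, among them leaving out pre-tumor 3 or 4 (adjusted p = 0.0347 and 0.0305). After renewed doxycycline it stood at 0.82, -0.01, 0.16 and -0.33, above all other arrays. The difference from tumor was 2.10 ± 0.48 (adjusted p = 0.00666) and from control 3.59 ± 0.52 (adjusted p = 0.000364). A second, dimmer Slc43a2 probe, above background on 5 arrays, differed by 0.96 in regression against tumor (adjusted p = 0.438), by 0.55 in regression against control (adjusted p = 0.69) and by -0.41 in tumor against control (adjusted p = 0.763). With the mean of all passing probes the call against tumor was lost.

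Slc43a1 stood at 0.29, -0.15, 1.03 and -0.03 in tumors, -1.15, -2.24, 0.67 and -0.19 in pre-tumor livers and -0.63, -1.89 and -1.06 in control liver. Tumors were above every control array, and the difference was not called (1.48 ± 0.58, adjusted p = 0.101). Its regression values of -0.33, 0.52, 0.78 and -0.38 overlapped tumor. Slc43a3, known as a carrier of purine nucleobases and not of amino acids, went the other way. It stood at 0.78, 0.75, 1.32 and 0.56 in tumors, against 3.16, 3.59, 3.37 and 2.16 in pre-tumor livers and 1.88, 2.16 and 2.11 in control liver (-1.20 ± 0.36 against control, adjusted p = 0.0339). The call against control was lost without any 1 of control 1, 2 and 3 and tumor 1, 2 and 4 (adjusted p between 0.0574 and 0.1). Median centring, slide as a block and leaving out the 4 arrays of highest E1A spike-in signal also ended it (adjusted p = 0.302, 0.0921 and 0.0562). Its regression arrays stood at 2.64, 2.48, 2.44 and 1.86, above every tumor array (1.50 ± 0.34, adjusted p = 0.00574).

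**Figure D3:**
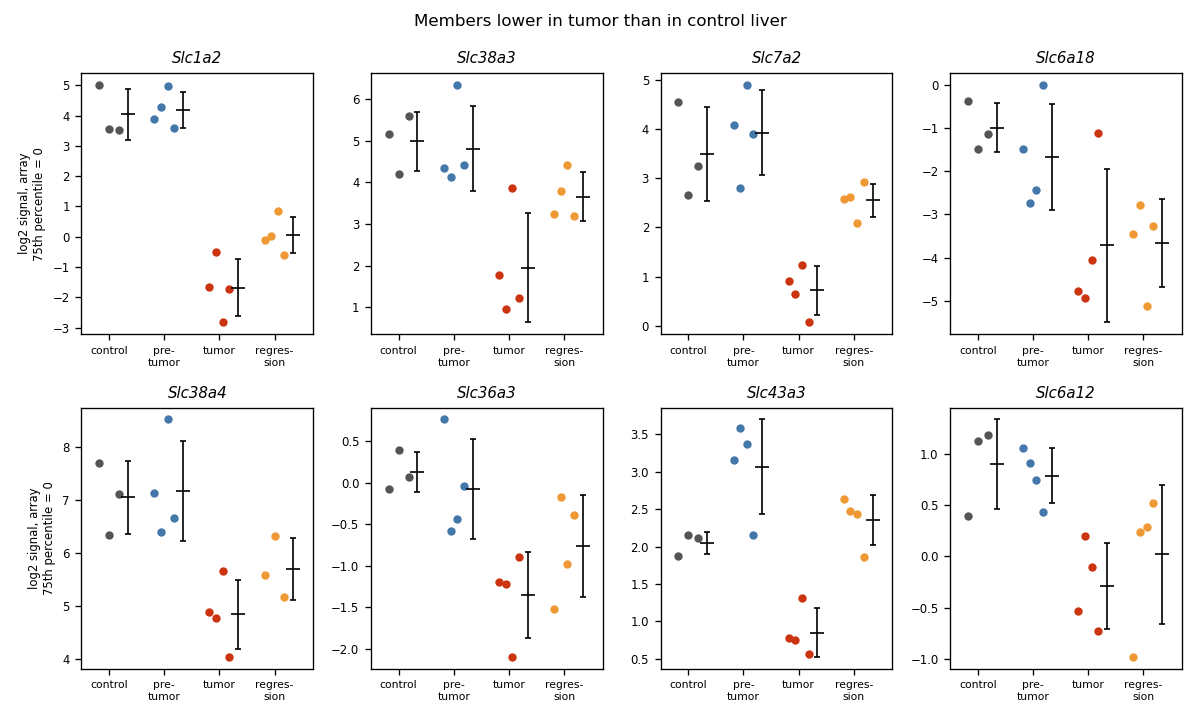
Level of the 8 members that fell in tumor against control, drawn as for the members that rose. Slc7a2 and Slc43a3 lie above all tumor arrays in regressing tumors, and Slc1a2 in regressing tumors stays below all pre-tumor and control arrays.

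The Slc6 carriers use sodium and chloride, and many of them carry osmolytes or transmitters. Of the 15 tested, 1 rose and 2 fell in tumors against control. Slc6a8, which takes up creatine, stood at 0.03, -0.15, -0.18 and -0.14 in tumors, against -3.64, -3.76, -2.75 and -1.38 in pre-tumor livers and -1.66, -3.60 and -3.64 in control liver, where 1 of 3 arrays was above background. Tumors were higher by 2.85 ± 0.59 (adjusted p = 0.00292). Regressing tumors, at 0.89, -0.46, -0.68 and -0.14, overlapped tumors (0.01 ± 0.55, adjusted p = 0.995) and remained above control (2.87 ± 0.59, adjusted p = 0.00554).

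Slc6a12 and Slc6a13, or BGT1 and GAT2, carry betaine and GABA in liver. Slc6a12 stood at -0.54, 0.20, -0.10 and -0.73 in tumors, against 1.06, 0.92, 0.74 and 0.43 in pre-tumor livers and 0.40, 1.13 and 1.19 in control liver. All tumor arrays were lower, but the call was marginal (-1.20 ± 0.39, adjusted p = 0.0498) and 17 of 28 other settings ended it. Those settings included leaving out any 1 of control 2 and 3, tumor 1, 3 and 4, the 4 pre-tumor arrays and regression 2, 3 and 4 (adjusted p between 0.0517 and 0.16). In regressing tumors Slc6a12 stood at -0.98, 0.24, 0.29 and 0.52, overlapping tumor. Slc6a13 stood at 2.19, 2.35, 2.40 and 1.74 in tumors, against 3.15, 3.59, 4.24 and 3.14 in pre-tumor livers and 3.14, 2.91 and 2.54 in control liver. Tumor was below pre-tumor by the test (-1.36 ± 0.31, adjusted p = 0.00471) and not below control (-0.69 ± 0.33, adjusted p = 0.185). At 3.31, 3.17, 2.97 and 3.06 it was higher in each regression array than in any tumor array (0.96 ± 0.31, adjusted p = 0.0435), a call that 13 of 28 other settings ended. They included leaving out any 1 of control 2, pre-tumor 2, tumor 1, 2 and 4 and all 4 regression arrays (adjusted p between 0.0562 and 0.132).

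Slc6a6, the taurine carrier, stood at 3.49, 2.84, 2.83 and 2.40 in tumors, at 3.25, 3.56, 3.97 and 2.04 in pre-tumor livers and at 3.25, 2.52 and 2.36 in control liver. With regression under way it stood at 5.07, 3.72, 3.79 and 4.17, above every tumor array, just short of the threshold (1.30 ± 0.44, adjusted p = 0.0535) and past it under 10 of 28 other settings, among them leaving out pre-tumor 3 or 4 (adjusted p = 0.041 and 0.0257). Slc6a9, the glycine carrier GlyT1, stood at 0.49, 1.01, 1.64 and 2.00 in regressing tumors, 1.79, 1.93, 1.58 and 1.15 in tumors, 1.94, 2.15, 1.04 and 1.29 in pre-tumor livers and 1.34, 2.27 and 1.94 in control liver, with no group apart. Slc6a18, a neutral amino acid carrier of kidney, was at -4.78, -4.94, -4.05 and -1.11 in tumors, -1.49, -2.74, -2.45 and -0.01 in pre-tumor livers and -0.37, -1.48 and -1.14 in control liver. Counting any of its probes, it was above background on 2 of 4 tumor and 3 of 3 control arrays. The called probe alone was above background on 8 arrays. On tumor 1, 2 and 3 that probe lay below the lowest signal above background there (-2.91, -2.94 and -2.09). Tumor 4 overlapped the controls, and the difference was -2.72 ± 0.85 (adjusted p = 0.0394). That call was lost without any 1 of the 3 control arrays, pre-tumor 1 or tumor 1, 2 or 3 (adjusted p between 0.0516 and 0.133). The mean of all passing probes, the authors' table and normexp with quantile normalization also ended it. So did slide as a block and only the 2 groups compared (adjusted p up to 0.195 over these settings). The other Slc6a18 probes, above background on 7 and 5 arrays, differed by -1.17 and -0.40 (adjusted p = 0.17 and 0.827). In regressing tumors its values were -3.46, -2.78, -5.12 and -3.27. The other 11 tested Slc6 members, with Slc6a6 and Slc6a9 among them, were never called, and their differences in tumors against control ran between -1.40 and 0.32.

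Some Slc36 carriers move small amino acids together with protons. Slc36a2, or PAT2, stood at 1.96, 0.92, 0.91 and 0.16 in tumors, against -1.78, -2.10, -1.50 and -1.16 in pre-tumor livers and -1.69, -1.51 and -2.12 in control liver. Every tumor array was higher, by 6.78-fold in the mean (2.76 ± 0.41, adjusted p = 0.000174). Regressing tumors, at 1.22, 1.69, 0.87 and 0.89, overlapped tumors (0.18 ± 0.38, adjusted p = 0.867) and were above control (2.94 ± 0.41, adjusted p = 0.000259).

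Slc36a4, or PAT4, a carrier of proline and tryptophan, stood at -0.62, 0.55, -1.09 and -0.66 in tumors, 0.12, 0.81, 0.59 and -0.15 in pre-tumor livers and 0.79, 1.51 and -0.43 in control liver (-1.08 ± 0.47 for tumor against control, adjusted p = 0.141; -1.61 and adjusted p = 0.0351 without control 3). In regressing tumors it stood at 2.33, 1.92, 1.65 and 1.74, above every other array, and the rise over tumor was 5.14-fold (2.36 ± 0.44, adjusted p = 0.00149). Slc36a1, or PAT1, which exports amino acids from lysosomes, stood at 0.10, -0.30, 0.19 and -0.57 in regressing tumors, -0.67, -0.36, -0.39 and -0.85 in tumors, -1.93, -0.39, -0.73 and -0.61 in pre-tumor livers and -1.18, -2.03 and -0.80 in control liver. It was not called for regression against control (1.19 ± 0.41, adjusted p = 0.085), although its second probe was (2.21, adjusted p = 0.00221). Slc36a3, a testis member, was lower in tumors, at -1.20, -1.22, -2.10 and -0.89, against 0.76, -0.58, -0.44 and -0.04 in pre-tumor livers and -0.08, 0.39 and 0.07 in control liver (-1.48 ± 0.42, adjusted p = 0.0243). That rests on 1 of its 3 probes: the other probes differed by 0.00 and -0.09, and the call was lost without control 2, control 3 or tumor 3 (adjusted p between 0.0629 and 0.0908). Median centring, normexp with quantile normalization and the mean of all passing probes also ended the call (adjusted p = 0.0873, 0.0547 and 0.405). Its regression values were -1.53, -0.17, -0.98 and -0.39.

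**Figure D4:**
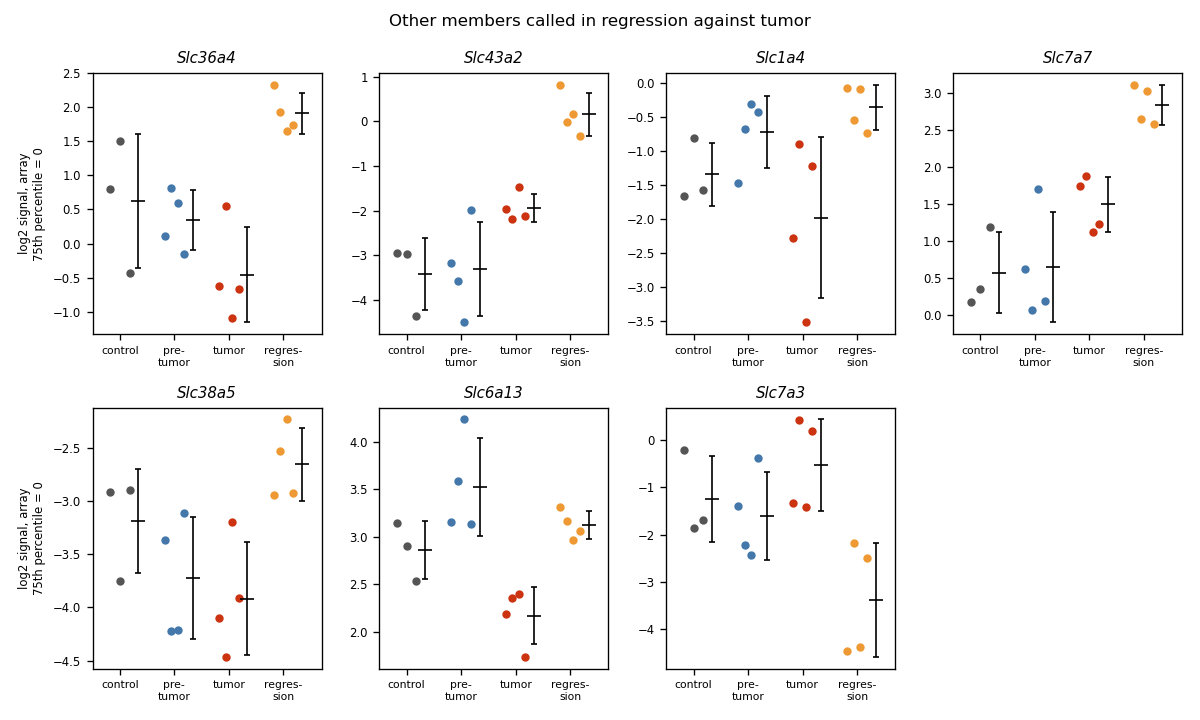
Level of the 7 members called in regression against tumor that were not called in tumor against control, drawn as above. Slc36a4, Slc43a2 and Slc7a7 lie above all arrays of the other groups in regressing tumors, while Slc7a3 lies below all tumor arrays.

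Counted together, 9 members rose and 5 fell in regression against tumor, where 8.45% of all genes rose, 8.35% fell and 16.8% changed in all. The rises were Slc1a2, Slc1a4, Slc6a13, Slc7a2, Slc7a7, Slc36a4, Slc38a5, Slc43a2 and Slc43a3, and the falls were Slc1a5, Slc7a1, Slc7a3, Slc7a5 and Slc7a6. Over all 51, 16 did not overlap between the groups (23.7% of all genes did not), and 12 of the called members were among them. All 14 had the same sign on each of the 4 slides. For the 12 without overlap that sign is fixed beforehand, so this is no separate check of the calls. This comparison and tumor against control share the tumor arrays, so a value high or low in tumors enters both with opposite sign. Leaving out 1 array gave between 8 and 16 called members, with 9 without tumor 1, tumor 4 or regression 2 and 8 without regression 3. Against control, 7 members were higher and 1 was lower in regressing tumors, where 5.12% of all genes were higher, 3.27% lower and 8.39% changed. The higher ones were Slc3a2, Slc6a8, Slc7a1, Slc7a7, Slc7a8, Slc36a2 and Slc43a2, and the lower one was Slc1a2. Groups did not overlap for 24 members, and for 25.3% of all genes. The split of higher to lower was 8 to 3 with median centring, 9 to 3 in the authors' table, 10 to 8 with replicate number as a block and 11 to 6 with the share of spots above background as a covariate. Over all genes it was 990 to 632 in the main fit and, in the same order, 1137 to 427, 1384 to 802, 1330 to 2179 and 1293 to 1645.

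Before a tumor was seen the carriers did not differ by the test. In pre-tumor against control liver limma called 0 of 51 members and 0 (0%) of all genes, and 0 members did not overlap, against 2.93% of all genes. At an unadjusted p under 0.05 it called 510 of all genes and 1 member, Slc43a3, at 3.16, 3.59, 3.37 and 2.16 in pre-tumor livers against 1.88, 2.16 and 2.11 in control liver (1.02 ± 0.36). Tumor against pre-tumor gave 8 higher and 8 lower members, where 9.99% of all genes were higher, 9.23% lower and 19.2% changed. With median centring these were 8 and 5. Groups did not overlap for 16 members, and for 21.1% of all genes. Slc1a2 had the largest fall there (-5.86 ± 0.50, adjusted p = 6.28e-07) and Slc1a5 the largest rise (4.74 ± 0.50, adjusted p = 5.37e-06). Slc6a13 was lower in this comparison and not against control, and Slc6a18 the reverse; whether the 2 differences differ was not tested.

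Genes of the response that cells mount when amino acids run short, driven by the factor ATF4, were followed beside the carriers. Of 26 tested, 8 rose and 2 fell in tumors against control. The rises were led by the serine synthesis enzymes Psat1 (6.74 ± 0.51, adjusted p = 2.96e-07) and Psph (5.16 ± 0.50, adjusted p = 3.3e-06), asparagine synthetase Asns (3.54 ± 0.36, adjusted p = 5.04e-06) and the mitochondrial folate enzyme Mthfd2 (2.49 ± 0.39, adjusted p = 0.000321). Chac1, a glutathione-degrading enzyme, and Herpud1, of endoplasmic reticulum protein breakdown, fell by 1.92 and 2.38. In regression against tumor 2 rose and 7 fell, among them Mthfd2 (-2.82 ± 0.36) and Phgdh (-2.50 ± 0.40). The median of the list in tumors was -0.02, against -0.18 over all genes.

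Of 16 genes of glutamine, glutamate and cystine use, 3 rose in tumors (among them Asns and the purine synthesis enzyme Ppat, by 2.61) and 3 fell (the alanine aminotransferase Gpt by 2.91, Glul, and the glutathione synthesis enzyme Gclc by 1.38). In regression against tumor 1 rose and 4 fell. Of 33 genes through which mTORC1 senses amino acids, only Rragd, a Rag GTPase, passed in tumors (1.14 ± 0.36, adjusted p = 0.0424), with Sesn1 next (0.97 ± 0.34, adjusted p = 0.0629). The list did not hold the lysosomal arginine sensor Slc38a9, which also passed (1.27 ± 0.42, adjusted p = 0.0492). In regression against tumor limma called 0 of the 33, and 7 at an unadjusted p under 0.05, with Fnip2 closest to passing (1.40 ± 0.48, adjusted p = 0.0556). Of 12 partner and accessory proteins of the carriers, Slc3a2 alone rose in tumors and none fell. The hyaluronan receptor Cd44 rose in regression (2.35 ± 0.49, adjusted p = 0.00355). Of 20 other amino acid and peptide carriers, 1 fell in tumors, the mitochondrial ornithine carrier Slc25a15 (-1.44 ± 0.45, adjusted p = 0.0397), with the vesicular glutamate carrier Slc17a8 next (-1.28 ± 0.45, adjusted p = 0.0637). In regression 3 rose, among them the lysosomal carriers Slc15a3 (1.90 ± 0.32) and Slc66a1 (1.67 ± 0.29), and Slc16a10 fell by 1.70.

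Whole tissue was measured, so fewer cells of a type and less RNA per cell cannot be told apart, and markers of several cell types moved with the carriers. Of 9 hepatocyte markers 8 fell and none rose in tumors against control, led by Cyp2e1 (-8.03 ± 1.33), and 5 rose in regression. Their summed level was 8.35 to 10.07 in tumors, against 10.68 to 12.34 in pre-tumor livers and 11.25 to 11.58 in control liver, and it was 10.72 to 11.64 in regressing tumors. Against control, 0 hepatocyte markers were higher and 3 lower in regressing tumors. The marker values go with the falls of Slc1a2, Slc7a2, Slc38a3 and Slc38a4 in tumors, and their part in them was not tested. In regressing tumors the summed level, Slc7a2 and Slc38a3 overlapped control liver. Slc38a4 and Slc1a2 stayed below every control array, with Slc1a2 at -0.59 to 0.85 against 3.53 to 5.01. Of 11 macrophage markers 7 rose in regression against tumor and none fell, with Csf1r at 2.52 ± 0.42 and Adgre1 at 2.39 ± 0.49. Against control, 3 were higher and 2 lower in tumors, and 7 were higher and 1 lower in regressing tumors. The macrophage sum was 7.32 to 8.32 in regressing tumors, against 5.37 to 6.45 in tumors, and it was 4.45 to 5.57 in control liver. These values go with Slc7a7, Slc7a8 and Slc43a2, and their part was not tested. Slc36a4 rose with the macrophage markers in regression against tumor, and in tumor against control it differed by -1.08 and was not called.

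Of 10 stellate and fibroblast markers 4 rose and 1 fell in tumors, and 7 rose in regression. Their sum was 7.15 to 8.85 in regressing tumors, 6.57 to 7.66 in tumors and 5.14 to 6.43 in control liver. The stellate and fibroblast values also go with Slc7a7, Slc7a8 and Slc43a2, and their part was not tested. Of 9 endothelial markers 3 fell in tumors and 6 rose in regression, with a sum of 3.15 to 4.26 in regressing tumors and 1.98 to 2.54 in tumors. In regression against tumor 4 of 9 T and NK cell markers, 4 of 7 erythroid markers and 1 of 7 bile duct markers also rose, while limma called 0 of 6 neutrophil markers (2 at an unadjusted p under 0.05) and 0 of 6 B and plasma cell markers (0 unadjusted). S100a8, Gzmb, Lum, Spp1 and Jchain were not above background on any tumor array.

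RefSeq promoters (GRCm38.p6, 250 bases before to 50 after a start) were at hand for 35 of the 51 tested members. The amino acid response element core TTGCATCA, searched on both strands as TTGCATCA and TGATGCAA, occurred in Slc1a4, Slc7a7 and Slc7a11, 8.57% of the 35 against 1.03% of 27025 genes. They are shown because Slc1a4 and Slc7a7 rose in regression and Slc7a11 holds the core in both orientations; capitals mark the core, and each is on the minus strand.
Slc1a4, chr11:20332710-20332747: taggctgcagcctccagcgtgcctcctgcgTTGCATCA
Slc7a7, chr14:54417938-54417975: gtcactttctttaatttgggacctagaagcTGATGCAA
Slc7a11, chr3:50443633-50443699: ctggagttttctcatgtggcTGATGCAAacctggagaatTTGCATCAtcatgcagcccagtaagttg
The E-box CACGTG, the palindrome that MYC with its partner MAX is known to bind, occurred in 8 of the 35 (22.9%), against 8.09% of all genes: Slc1a6, Slc1a7, Slc6a3, Slc6a16, Slc7a14, Slc36a1, Slc38a5 and Slc43a1. Of these only Slc38a5 was called in any comparison, and its window on the plus strand is given with the E-box in capitals.
Slc38a5, chrX:8271321-8271380: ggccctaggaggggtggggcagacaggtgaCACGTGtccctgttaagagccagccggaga
Only 4 of the 8 members that rose and 4 of the 8 that fell in tumors had a promoter in the table, and none of these held either sequence. A match is a description of the letters and does not show binding. The 27025 genes are more than the 21538 symbols on the array and were not filtered for signal, while the 35 members were. The shares are thus not like for like, and enrichment was not tested.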

How the data were processed

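RNA from frozen liver or tumor tissue was amplified by whole transcriptome amplification, labelled with Cy3 and read on Agilent mouse 4x44K arrays, per the labels' protocols. Per the file headers, Feature Extraction 10.5.1.1 gave a processed intensity per spot. The authors also deposited a normalized table of log2 values, whose method is not given in the sources used here. It supplied gene symbols and an alternative.

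Intensities were log2-transformed, and the 75th percentile of an array was subtracted from its values. Outlier spots (0.452% of spots) were left out, and the spots of a probe averaged. Probes well above background on at least 3 of 15 arrays were kept: 29877 of the 34908 with a symbol, among 41174 in all. A member's count of arrays above background takes an array when any of its probes was above background there. The probe with the highest mean stood for a gene, and 20 members had 2 or more passing probes. limma (3.58.1, R 4.3.3) fitted 1 model of 4 group means with 11 residual degrees of freedom, two-sided, with Benjamini-Hochberg adjustment over 19328 genes (over 29877 probes for single probes). The procedure was tested on simulated data. Bounds are given here for genes above background on no array of 1 group and every array of the other. They are set against the lowest signal above background on each dim array, or the gene's own signal there where higher. A summed level is log2 of summed linear signals.

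The members, the lists and the genes named (25 members picked by name, any member called in a comparison, and the 2 to 4 of smallest adjusted p in each list) were chosen with earlier results of these data known. The 28 alternatives covered normalization, background, filters, probe choice, blocks, variance settings and leaving out arrays, of which 1 was added after seeing the data. The values of some list genes that this rule names are not reported here, though the lists' counts include them.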

Additional observations from a re-analysis of the deposited data

Results flagged for a closer look

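The 32 named members were checked, and the other tested members were not. Of their 95 groups of 4 arrays, 2 (2.11%) held an array far from the other 3 by Dixon's test, where chance alone gives about 1 in 20. Slc1a5 on tumor 3 was at 2.17, below the other tumor arrays at 3.78 to 4.11. Slc38a3 on pre-tumor 3 was at 6.35, above the other pre-tumor arrays at 4.14 to 4.43. No explanation was tested for either.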

How the results depend on the processing

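No member called in any of the 5 comparisons changed direction under the 28 alternatives. Under all of them 6 of 16 calls were kept in tumor against control (Slc1a2, Slc1a5, Slc6a8, Slc7a1, Slc7a2, Slc36a2), 7 of 14 in regression against tumor (Slc1a5, Slc7a1, Slc7a2, Slc7a3, Slc7a5, Slc36a4, Slc43a3), 11 of 16 in tumor against pre-tumor and 6 of 8 in regression against control. In tumor against control the count was 9 with slide as a block, and 10 without the 4 arrays of highest E1A signal or without control 1, and 10 to 16 over the leave-one-out fits. Regression against tumor gave 8 to 16, tumor against pre-tumor 12 to 17 and regression against control 7 to 12 when 1 array was left out. Regression against control gave 13 with a filter for probes above background on every array of 1 group, 17 with the share of spots above background as a covariate and 18 with replicate number as a block. Pre-tumor against control gave 0 members throughout. Calls over all genes shifted alike. Regression against control gave 990 higher and 632 lower in the main fit, and 1156 and 761 of 15693 genes with the filter. It gave 1293 and 1645 with the covariate and 1330 and 2179 with the replicate block. Tumor against control gave 1812 and 1354 in the main fit and 1269 and 974 with slide as a block. It gave 1656 and 979 without control 1, and 1511 and 1307 without the 4 E1A arrays. The causes of these changes were not tested. The leave-one-out fits hold fewer arrays, but their counts went both ways, as with 8 to 16 against 14 in regression against tumor.

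Replicate numbers were not taken as pairing the samples, since not every pair of the same number had deviations correlated above 0.1: 11 of 21 did (median 0.13, range -0.46 to 0.61), against 2 of 21 pairs on the same slide (median -0.17) and 14 of 44 sharing neither (median 0.02). That rule asks this of every pair, so it cannot decide whether the samples were paired. Pairs of the same number had a higher median than pairs sharing neither. With the number as a block 20, 16, 0, 17 and 18 members were called in tumor against control, regression against tumor, pre-tumor against control, tumor against pre-tumor and regression against control. Over all genes more were also called in each direction than in the main fit, except in pre-tumor against control. Dim probes limit what can be seen: 26 tested members were near background on at least 1 array.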

Other observations

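On control 1, pre-tumor 1, pre-tumor 4 and tumor 4 the median signal of the Agilent E1A spike-in spots was 25.6 to 76.1, against 2.58 to 10.4 on the other 11 arrays. Of the 26 members above background on only some arrays, 13 (50%) had their highest tumor value on tumor 4, 16 (61.5%) their highest pre-tumor value on pre-tumor 4, 7 (26.9%) on pre-tumor 1, and 14 (53.8%) their highest control value on control 1. Of the 25 members above background on all arrays, these counts were 3 (12%), 4 (16%), 4 (16%) and 8 (32%). Among the dim members Slc6a18, Slc6a20b, Slc7a4, Slc7a6, Slc7a11 and Slc7a14 the highest values of these groups fell on tumor 4, pre-tumor 4 and control 1. These are counts with no test, and why the arrays differ was not tested.

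Among the Slc38 carriers that the table lists under other names, Slc38a9, which passed in tumors against control, stood at -1.05 to -0.22 in tumors, against -2.88 to -1.14 in control liver, without overlap.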
